A study of Mus musculus with 12 samples.

Results

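The genes described here are 41 genes of the lysosome, chosen by symbol: 12 glycosidases (with Aga, an amidase of glycoprotein breakdown, counted among them), 4 sulfatases, 7 genes of lipid breakdown or lipid export, 11 membrane proteins, 4 genes for proteases, a phosphatase and progranulin, and the transcription factor genes Tfeb, Tfe3 and Mitf. Of these, 40 were found among the 16482 genes of the count table and all 40 had enough counts to be tested; Gm2a is not analysed here. RNA from whole-brain homogenates of C57BL/6 mice was counted in 12 libraries by bulk MARS-seq, which reads tags near the 3' ends of transcripts. The first group was given CBE together with GZ-667161 and held 4 libraries of postnatal day 40 (replicates 2, 3, 4 and 5). The second was given CBE and held replicates 2 and 3 of day 34, with replicates 4 and 6 of day 40. The controls were given PBS and held 4 libraries of day 40 (replicates 2, 3, 4 and 5). CBE, conduritol B epoxide, is a chemical inhibitor of the lysosomal enzyme that cleaves glucosylceramide and acts in every cell it reaches, so these are wild-type mice with a drug-made model of Gaucher disease. GZ-667161 lowers the synthesis of glucosylceramide, the lipid that builds up in that disease. Whether the libraries of a group stem from different mice is not stated in the labels. The p-values therefore speak of the spread among these libraries, which may in part be technical.

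Lysosomes are the acidic compartments in which cells break down glycolipids, glycosaminoglycans, glycoproteins and proteins. Soluble hydrolases do the cutting, while heavily glycosylated membrane proteins form the wall and carry lipids, ions and building blocks across it. Many genes of this compartment carry in their promoters the CLEAR motif, which is read by TFEB and its relatives TFE3 and MITF, and microglia, the phagocytes of the brain, are rich in lysosomes.

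Promoter windows from RefSeq (GRCm38.p6, from 250 bases before to 50 bases after a gene's start) were at hand for 35 of the 40 genes. The core of the CLEAR motif, CACGTG, which reads the same on both strands, stood in 9 of these 35 genes (25.7%), against 12% of 9628 tested genes and 8.09% of all 27025 genes with a window. The longer TCACGTG, or CACGTGA on the other strand, which contains the core, stood in the same 9 genes (25.7%), against 7.0% of tested genes and 4.29% of all. The full palindrome of 10 bases, the CLEAR motif proper, stood in 1 of 35 (2.86%), Cln3, against 0.758% of tested genes and 0.37% of all. The 9 genes were Cln3, Gaa, Gla, Glb1, Lamp1, Lgmn, Mcoln1, Naglu and Sgsh. The stretches below are shown because they hold the motif in 4 genes that were higher in CBE than in PBS brains and in 2 that did not pass that test. For Cln3 and Lgmn the stretch lies in the window of a start further inside the gene. The window nearer the annotated start of each of these genes held 0 copies of the core. Capitals mark the core CACGTG, and each stretch is written 5' to 3' on the strand of its gene. The coordinates are chr8:13159099-13159151 on the plus strand (Lamp1), chr7:126583340-126583369 on the minus strand (Cln3) and chr11:101070008-101070037 on the plus strand (Naglu). The others are chr12:102439125-102439154 on the minus strand (Lgmn), chr11:119267810-119267839 on the plus strand (Gaa) and chr9:114401017-114401046 on the plus strand (Glb1).
Lamp1: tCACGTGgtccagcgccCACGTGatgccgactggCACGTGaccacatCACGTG
Cln3: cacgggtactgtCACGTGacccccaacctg
Naglu: ccaaccttcaggtCACGTGgcccgaggtcg
Lgmn: atggaatgtctgtCACGTGgtccattttat
Gaa: ttttctgtgcgatCACGTGtttgactctga
Glb1: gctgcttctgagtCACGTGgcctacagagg
Lamp1 held 4 copies of the core within 53 bases, the most of any of the 35 genes. Among genes with a window, the motif TCACGTG stood in 5 of the 15 that were higher in CBE than in PBS libraries and in 4 of the other 20. Cln3 and Lgmn are among these 5 and held it only in the window further inside the gene. This is a description of the windows, with no test.

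Total counts ran from 1753626 to 6499257 per library, and the 2 CBE libraries of day 34 had the lowest. Levels are given in CPM, counts scaled to a common TMM library size. Since the counts are 3' tags, they are compared between libraries and not between genes. Differences are on the log2 scale, each ± its standard error, from 1 edgeR quasi-likelihood fit with all 3 groups. Adjustment of p ran over the 12623 genes tested, and the threshold was 0.05. Xist, the transcript of the inactive X chromosome, was above 1 CPM in CBE+GZ-667161 replicates 2, 3 and 5, in none of the CBE libraries, and in PBS replicates 4 and 5, so the sexes were not balanced between groups. In whole-brain RNA, fewer cells of a type and less RNA per cell cannot be told apart. All per-library values below are given in the order of the replicate numbers above.

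The 40 genes together took 3747, 4379, 4138 and 4958 CPM in the CBE+GZ-667161 libraries, 5487, 5692, 5475 and 5173 CPM in the CBE libraries, and 3385, 3258, 3344 and 3207 CPM in the PBS libraries. The 3 groups did not overlap: every CBE library lay above every CBE+GZ-667161 library, and every CBE+GZ-667161 library above every PBS library. The mean sum was 1.31 times that of PBS in CBE+GZ-667161 and 1.65 times in CBE, and CBE+GZ-667161 stood at 0.789 times CBE. The sums of the membrane genes followed the same order, at 1.46 times PBS in CBE+GZ-667161 and 1.98 times in CBE, whereas the sulfatase sum was 0.954 times PBS in CBE+GZ-667161 and 0.905 times in CBE.

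**Figure D1:**
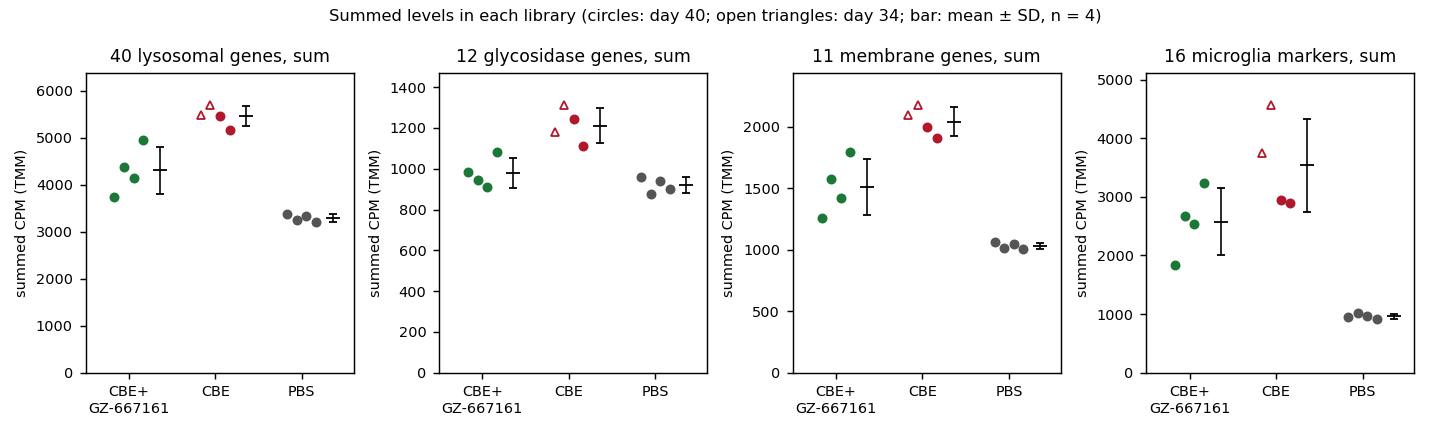
Summed CPM of the 40 lysosomal genes, the 12 glycosidase genes, the 11 membrane genes and 16 microglia markers in each of the 12 libraries, with the mean ± SD of 4 libraries beside each group (circles: day 40, open triangles: day 34). The 40-gene sum lies between 3747 and 4958 CPM in CBE+GZ-667161, between 5173 and 5692 CPM in CBE and between 3207 and 3385 CPM in PBS.

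In CBE against PBS, 16 of the 40 genes were higher, beside 6.95% of all tested genes, and 1 was lower (Ids), beside 4.04%. The 4 and 4 libraries did not overlap in 16 genes that were higher and 1 that was lower, beside 8.61% and 7% of all tested genes. The median log2 fold change of the 40 was 0.49, with 37 above 0, where that of all tested genes was -0.01. The other 23 genes lay between -0.34 and 0.60 with a median of 0.24, and 6 of them had an unadjusted p under 0.05. Over all 40 genes that count was 23, beside 3133 of the 12623 tested genes. In CBE+GZ-667161 against PBS, 9 genes were higher, beside 3.11% of all tested genes (3.45% in either direction). None of the 40 was lower in edgeR, beside 0.333%, nor in DESeq2 or limma-voom. An unadjusted p under 0.05 was seen for 16 of the 40, beside 1658 of the 12623 tested genes. The median was 0.30, against 0.00 over all tested genes, and 15 genes lay higher without overlap, beside 6.65% of all tested genes. In CBE+GZ-667161 against CBE, 6 genes were lower, beside 0.832% of all tested genes, and 0 were higher in any of the 3 tools, beside 0.444%. The median was -0.18 with 33 of 40 genes below 0, against a median of 0.01 over all tested genes. An unadjusted p under 0.05 was seen for 17 of the 40, beside 2085 of the 12623 tested genes. Without overlap, 9 lay lower, beside 3.98% of all tested genes. The comparisons share libraries, so they are not independent of each other.

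**Figure D2:**
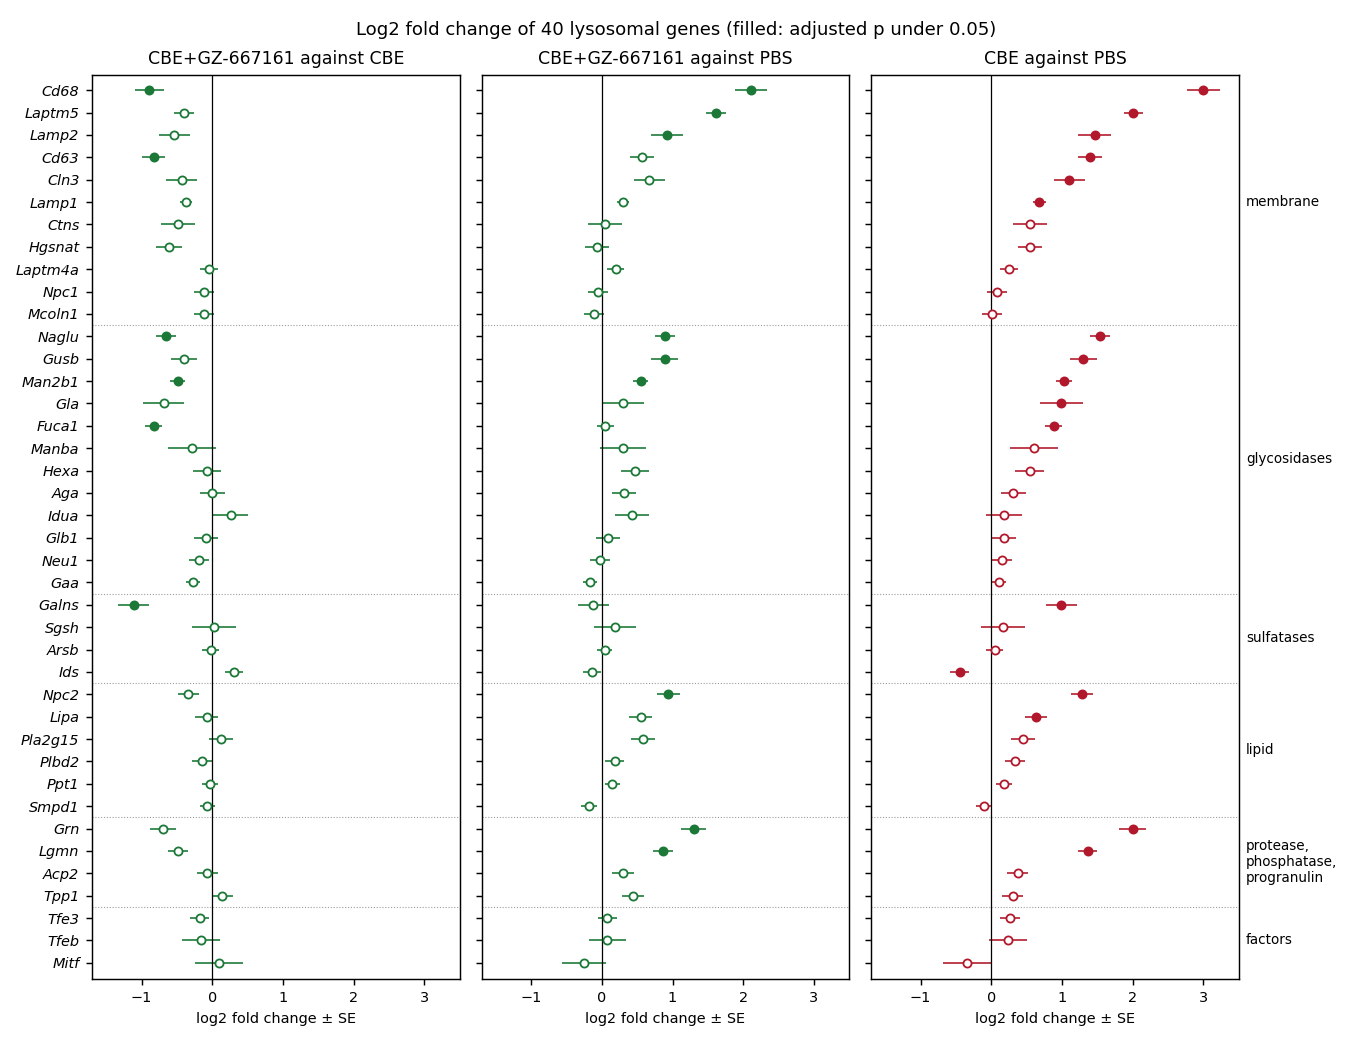
Log2 fold change ± SE of each of the 40 genes, grouped by role and sorted by the value in CBE against PBS, for CBE+GZ-667161 against CBE (left), CBE+GZ-667161 against PBS (middle) and CBE against PBS (right); filled points have an edgeR adjusted p under 0.05. Cd68, Laptm5 and Grn have the highest values in CBE against PBS (3.0, 2.01 and 2.0), and Ids is the filled point below 0 (-0.45).

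Of the 11 membrane protein genes, 6 were higher in CBE than in PBS and 0 were lower, beside 6.95% and 4.04% of all tested genes. In CBE+GZ-667161 against PBS 3 of 11 were higher, beside 3.11%. Cd68, which encodes macrosialin, a glycoprotein of the lysosomal wall in phagocytes (chromosome 11, 69664213 to 69666153, GRCm38 as are the positions that follow), had 48.8, 88.8, 87.5 and 131 CPM in CBE+GZ-667161, 165, 189, 163 and 136 CPM in CBE, and 19.8, 19.6, 23.5 and 19.2 CPM in PBS. No group overlapped another, although CBE+GZ-667161 replicate 5 came close to CBE replicate 6. The log2 fold change was 2.11 ± 0.22 for CBE+GZ-667161 against PBS (edgeR adjusted p = 1.4e-05), 3.0 ± 0.23 for CBE against PBS (adjusted p = 1.9e-07) and -0.89 ± 0.21 for CBE+GZ-667161 against CBE (adjusted p = 0.044). The last of these calls was lost when any of 10 of the 12 libraries was left out, with an adjusted p of up to 0.13. Laptm5, a transmembrane protein gene of lysosomes in blood-derived and microglial cells (chromosome 4, 130913125 to 130936141), had 229, 345, 294 and 347 CPM in CBE+GZ-667161, 390, 485, 383 and 349 CPM in CBE, and 99.5, 108, 90.1 and 98.8 CPM in PBS. Its CBE+GZ-667161 and CBE libraries all stood far above PBS and met at their edges, at 347 and 349 CPM. Laptm5 was higher by 1.61 ± 0.14 in CBE+GZ-667161 and by 2.01 ± 0.14 in CBE than in PBS (edgeR adjusted p = 2.5e-06 and 1.3e-07), while CBE+GZ-667161 against CBE gave -0.40 ± 0.14 (adjusted p = 0.16).

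The tetraspanin gene Cd63, whose product sits in late endosomes, lysosomes and exosomes (chromosome 10, 128900989 to 128912822), had 162, 224, 146 and 270 CPM in CBE+GZ-667161, 387, 388, 314 and 330 CPM in CBE, and 155, 125, 125 and 131 CPM in PBS. Its CBE libraries stood apart from both other groups, and CBE+GZ-667161 replicate 4 lay below the highest PBS library. The difference was 0.57 ± 0.17 for CBE+GZ-667161 against PBS (edgeR adjusted p = 0.075), 1.40 ± 0.17 for CBE against PBS (adjusted p = 2.3e-05) and -0.83 ± 0.16 for CBE+GZ-667161 against CBE (adjusted p = 0.026). Lamp1, one of the most abundant proteins of the lysosomal wall (chromosome 8, 13159161 to 13175338), had 456, 476, 471 and 565 CPM in CBE+GZ-667161, 612, 635, 658 and 643 CPM in CBE, and 407, 405, 401 and 380 CPM in PBS. The 3 groups formed 3 steps with no overlap. The step of CBE over PBS passed at 0.68 ± 0.09 (edgeR adjusted p = 0.00012), but those of CBE+GZ-667161 over PBS, 0.30 ± 0.09, and of CBE+GZ-667161 against CBE, -0.37 ± 0.09, did not (adjusted p = 0.11 and 0.057). Exons of Lamp1 and of Grtp1 on the other strand share 249 bases, and the sources used here do not give whether strand was used in counting.

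Lamp2 and Cln3 were also higher in CBE than in PBS. Lamp2, whose product forms the lysosomal wall and serves chaperone-mediated autophagy, averaged 34.8 ± 13.6 CPM in CBE+GZ-667161, 49.9 ± 7.71 in CBE and 17.8 ± 2.20 in PBS (SD, n = 4 each, as for the means that follow). The difference was 0.92 ± 0.23 for CBE+GZ-667161 against PBS (edgeR adjusted p = 0.03) and 1.46 ± 0.23 for CBE against PBS (adjusted p = 0.00039). Its call in CBE+GZ-667161 against PBS did not survive leaving out CBE+GZ-667161 replicate 3 or 5, or PBS replicate 2, 3 or 4 (adjusted p up to 0.11). Cln3, the gene of a lysosomal membrane protein that is mutated in juvenile neuronal ceroid lipofuscinosis, averaged 19.2 ± 3.09 CPM in CBE+GZ-667161, 25.9 ± 7.07 in CBE and 12 ± 1.94 in PBS. It was higher by 1.10 ± 0.22 in CBE than in PBS (edgeR adjusted p = 0.0037). Exons of Cln3 and of Apobr on the other strand share 442 bases. The 5 membrane genes that passed in none of the comparisons were Npc1, a cholesterol exporter, Mcoln1, a calcium channel, Ctns, the cystine exporter, Hgsnat, an acetyltransferase of heparan sulfate breakdown, and Laptm4a. In CBE against PBS they lay between 0.01 (Mcoln1) and 0.54 (Ctns and Hgsnat). Npc1 averaged 27.0 ± 2.66, 29.4 ± 1.80 and 27.7 ± 2.82 CPM in CBE+GZ-667161, CBE and PBS, and Mcoln1 78.4 ± 11.3, 85.1 ± 10.5 and 85.0 ± 12.5 CPM. The 95% interval of the log2 fold change in CBE against PBS ran from -0.22 to 0.37 for Npc1 and from -0.30 to 0.31 for Mcoln1.

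**Figure D3:**
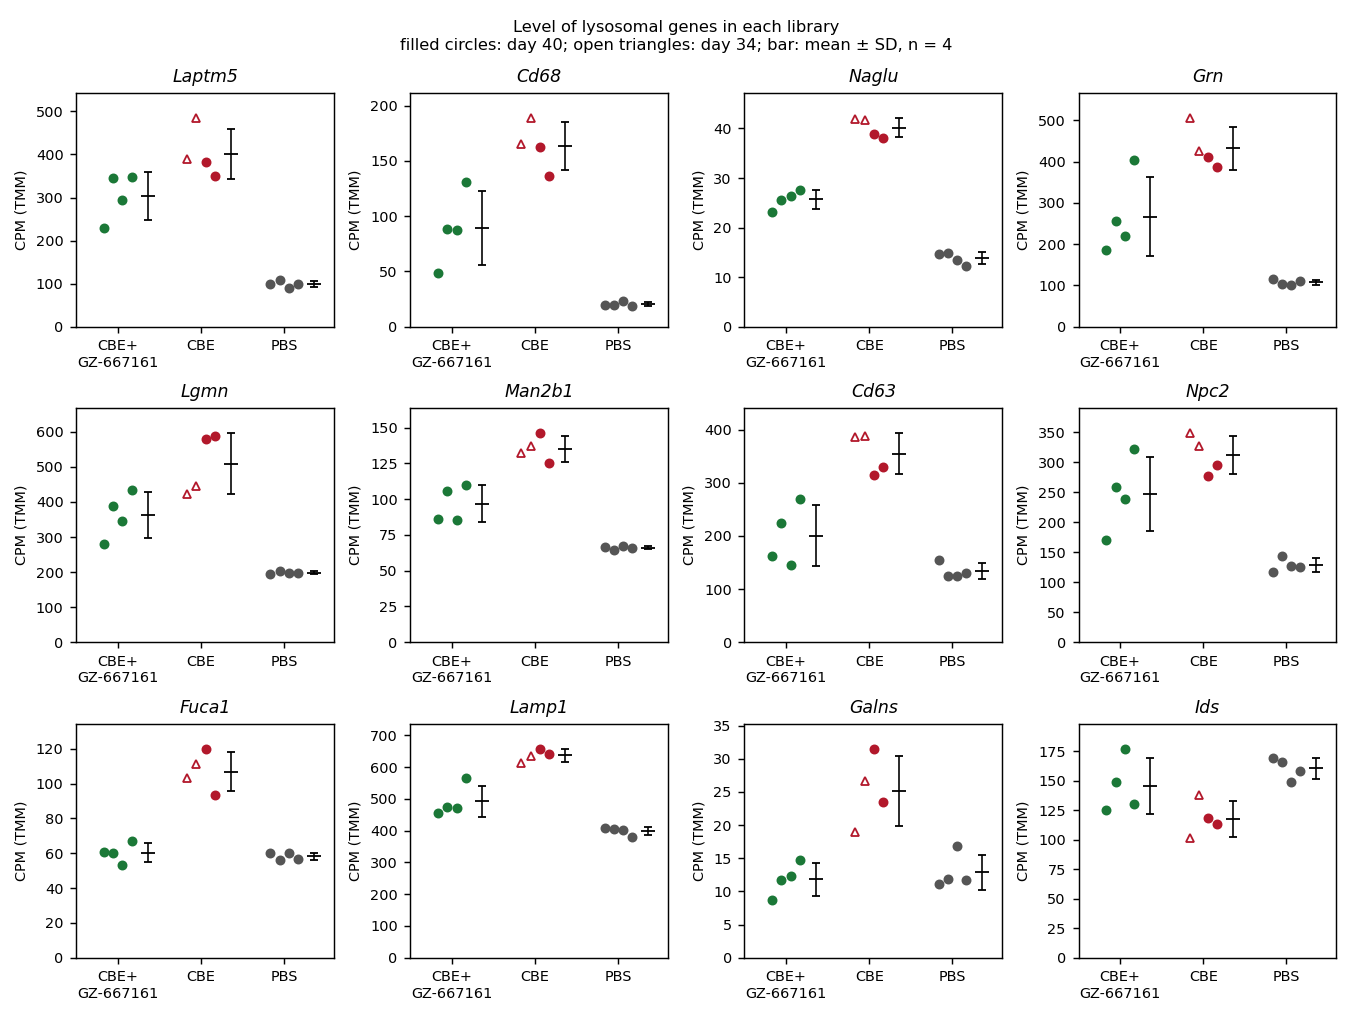
CPM of 12 lysosomal genes in each of the 12 libraries (circles: day 40, open triangles: day 34), with the mean ± SD of 4 libraries beside each group; all axes start at 0. In 11 panels the 4 CBE libraries lie above the 4 PBS libraries, and in the Ids panel they lie below; in the Fuca1 and Galns panels the CBE+GZ-667161 libraries lie at the level of PBS.

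Of the 12 glycosidase genes, 5 were higher in CBE than in PBS and 0 were lower, beside 6.95% and 4.04% of all tested genes. In CBE+GZ-667161 against PBS 3 were higher, beside 3.11%. Naglu, the α-N-acetylglucosaminidase of heparan sulfate breakdown (chromosome 11, 101070012 to 101077672), had 23.2, 25.6, 26.4 and 27.6 CPM in CBE+GZ-667161, 42.0, 41.7, 38.9 and 38.1 CPM in CBE, and 14.6, 14.9, 13.4 and 12.3 CPM in PBS. The 3 groups were tight and well apart. Naglu was higher by 0.89 ± 0.14 in CBE+GZ-667161 and by 1.54 ± 0.14 in CBE than in PBS (edgeR adjusted p = 0.00073 and 1.3e-06), and lower in CBE+GZ-667161 than in CBE (-0.65 ± 0.14, adjusted p = 0.032). Man2b1, the lysosomal α-mannosidase that trims N-glycans (chromosome 8, 85083270 to 85098282), had 86.1, 106, 85.2 and 110 CPM in CBE+GZ-667161, 132, 137, 146 and 125 CPM in CBE, and 66.7, 64.7, 67.0 and 65.5 CPM in PBS. Here too the 3 groups did not overlap, and the PBS libraries were within 3 CPM of each other. The log2 fold change was 0.55 ± 0.11 for CBE+GZ-667161 against PBS (edgeR adjusted p = 0.0088), 1.03 ± 0.11 for CBE against PBS (adjusted p = 1.1e-05) and -0.49 ± 0.11 for CBE+GZ-667161 against CBE (adjusted p = 0.045). Leaving out any of 11 of the 12 libraries lost this last call (edgeR adjusted p up to 0.14). Fuca1, the α-fucosidase that removes fucose from glycoproteins and glycolipids (chromosome 4, 135920735 to 135940311), had 60.9, 60.0, 53.4 and 66.8 CPM in CBE+GZ-667161, 103, 111, 120 and 93.7 CPM in CBE, and 60.1, 56.0, 59.9 and 56.5 CPM in PBS. All 4 CBE libraries stood above the other 8, and the CBE+GZ-667161 libraries lay on both sides of the PBS libraries. Fuca1 was higher by 0.88 ± 0.12 in CBE than in PBS (edgeR adjusted p = 6.5e-05) and lower in CBE+GZ-667161 than in CBE (-0.83 ± 0.12, adjusted p = 0.006). CBE+GZ-667161 against PBS gave 0.05 ± 0.12 (adjusted p = 0.92), with a 95% interval from -0.20 to 0.30.

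Gusb, the β-glucuronidase of glycosaminoglycan breakdown, averaged 47.4 ± 11.1 CPM in CBE+GZ-667161, 62.8 ± 12.5 in CBE and 25.3 ± 3.55 in PBS. It was higher by 0.89 ± 0.19 in CBE+GZ-667161 and by 1.30 ± 0.19 in CBE than in PBS (edgeR adjusted p = 0.0093 and 0.00019). Gla, the α-galactosidase A that is lacking in Fabry disease, averaged 6.94 ± 1.51 CPM in CBE+GZ-667161, 11.1 ± 2.92 in CBE and 5.59 ± 1.68 in PBS. It was higher by 0.99 ± 0.30 in CBE than in PBS (edgeR adjusted p = 0.042), a call that was lost without any 1 of 6 libraries (CBE+GZ-667161 replicate 3, CBE replicate 3 or 6, PBS replicate 3, 4 or 5), with an adjusted p of up to 0.12. The 7 glycosidase genes that passed in none of the 3 comparisons were Hexa, Glb1, Gaa, Neu1, Manba, Aga and Idua. In CBE against PBS they lay between 0.11 ± 0.10 (Gaa, the glycogen-cleaving α-glucosidase) and 0.60 ± 0.34 (Manba, the β-mannosidase). Gaa averaged 446 ± 45.4 CPM in CBE+GZ-667161, 539 ± 35.0 in CBE and 501 ± 32.3 in PBS. Its CBE+GZ-667161 libraries all lay below the CBE libraries, without a call (-0.27 ± 0.10, edgeR adjusted p = 0.19). The β-galactosidase gene Glb1, which averaged 35.1 ± 6.29, 37.5 ± 6.18 and 32.9 ± 4.17 CPM in CBE+GZ-667161, CBE and PBS, had an interval from -0.18 to 0.54 in CBE against PBS.

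The 4 sulfatase genes went different ways. Galns, which removes sulfate from keratan and chondroitin sulfate (chromosome 8, 122578242 to 122611463), had 8.63, 11.7, 12.3 and 14.7 CPM in CBE+GZ-667161, 18.9, 26.7, 31.5 and 23.5 CPM in CBE, and 11.1, 11.9, 16.8 and 11.7 CPM in PBS. Every CBE library stood above the other 8, and the CBE+GZ-667161 and PBS libraries were mixed. Galns was higher by 0.99 ± 0.22 in CBE than in PBS (edgeR adjusted p = 0.0062) and lower in CBE+GZ-667161 than in CBE (-1.11 ± 0.22, adjusted p = 0.025), with -0.12 ± 0.22 in CBE+GZ-667161 against PBS (adjusted p = 0.91). Ids, the iduronate sulfatase that is lacking in Hunter syndrome (chromosome X, 70343069 to 70365084), had 125, 149, 177 and 130 CPM in CBE+GZ-667161, 101, 138, 118 and 113 CPM in CBE, and 169, 166, 149 and 158 CPM in PBS. The CBE libraries all lay below the PBS libraries, and the CBE+GZ-667161 libraries spread over both. Ids was the 1 gene of the 40 that was lower in CBE than in PBS (-0.45 ± 0.13, edgeR adjusted p = 0.033). The call was lost without CBE replicate 2, 4 or 6 or PBS replicate 2, 3 or 5 (adjusted p up to 0.11) and with a replicate block. Of 10 neuron markers, 6 were also lower in CBE than in PBS, beside 4.04% of all tested genes, with a median of -0.56; their part in the value of Ids was not tested. Arsb and Sgsh, sulfatases of dermatan and heparan sulfate, gave 0.05 ± 0.12 and 0.16 ± 0.31 in CBE against PBS and passed in none of the comparisons.

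Among the 6 genes of lipid breakdown and export, 2 were higher in CBE than in PBS and 1 in CBE+GZ-667161 than in PBS, beside 6.95% and 3.11% of all tested genes. Npc2, the soluble protein that hands cholesterol to NPC1 (chromosome 12, 84754562 to 84773152), had 170, 259, 238 and 321 CPM in CBE+GZ-667161, 348, 327, 277 and 295 CPM in CBE, and 117, 144, 127 and 125 CPM in PBS. Both groups given CBE lay above all PBS libraries, and they overlapped each other through CBE+GZ-667161 replicate 5. The log2 fold change was 0.94 ± 0.16 for CBE+GZ-667161 against PBS (edgeR adjusted p = 0.0011), 1.28 ± 0.16 for CBE against PBS (adjusted p = 3e-05) and -0.34 ± 0.15 for CBE+GZ-667161 against CBE (adjusted p = 0.28). Its partner in cholesterol export, Npc1, was at 0.08 ± 0.14 in CBE against PBS (edgeR adjusted p = 0.79); exons of Npc1 overlap those of Rmc1 on the other strand. Lipa, the acid lipase that cleaves cholesteryl esters, averaged 27.1 ± 2.94 CPM in CBE+GZ-667161, 28.6 ± 1.63 in CBE and 18.2 ± 3.38 in PBS. It was higher by 0.63 ± 0.16 in CBE than in PBS (edgeR adjusted p = 0.02), a call lost without PBS replicate 4 or CBE replicate 6 (adjusted p up to 0.062). It gave 0.55 ± 0.16 in CBE+GZ-667161 against PBS (adjusted p = 0.079). Smpd1, the acid sphingomyelinase, averaged 256 ± 27.2, 268 ± 11.9 and 291 ± 27.8 CPM in CBE+GZ-667161, CBE and PBS, with -0.11 ± 0.11 in CBE against PBS. Pla2g15, a lysosomal phospholipase, Ppt1, the palmitoyl-protein thioesterase, and Plbd2 lay at 0.45 ± 0.17, 0.18 ± 0.11 and 0.33 ± 0.14 in CBE against PBS and passed in none of the 3 comparisons.

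Of the remaining 4 genes, progranulin and legumain were higher in both groups given CBE. Grn encodes progranulin, which is cut into granulins in lysosomes and is abundant in microglia (chromosome 11, 102430315 to 102437048). It had 187, 257, 219 and 404 CPM in CBE+GZ-667161, 506, 426, 410 and 387 CPM in CBE, and 115, 104, 102 and 111 CPM in PBS. CBE+GZ-667161 replicate 5 reached the CBE range, and the other CBE+GZ-667161 libraries lay between the CBE and PBS ranges. Grn was higher by 1.30 ± 0.18 in CBE+GZ-667161 and by 2.0 ± 0.19 in CBE than in PBS (edgeR adjusted p = 0.00026 and 1.6e-06), and CBE+GZ-667161 against CBE gave -0.70 ± 0.18 (adjusted p = 0.062). Lgmn, the cysteine protease legumain that cuts after asparagine (chromosome 12, 102394084 to 102439813), had 280, 390, 345 and 434 CPM in CBE+GZ-667161, 424, 445, 580 and 588 CPM in CBE, and 194, 203, 198 and 198 CPM in PBS. The day 40 CBE libraries were the highest, and CBE+GZ-667161 replicate 5 lay above 1 of the day 34 CBE libraries. Lgmn was higher by 0.87 ± 0.14 in CBE+GZ-667161 and by 1.36 ± 0.14 in CBE than in PBS (edgeR adjusted p = 9e-04 and 4.9e-06), with -0.49 ± 0.14 for CBE+GZ-667161 against CBE (adjusted p = 0.082). Tpp1, a tripeptidyl peptidase, and Acp2, the acid phosphatase, gave 0.30 ± 0.15 and 0.37 ± 0.15 in CBE against PBS and passed in none of the comparisons.

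The 3 transcription factor genes did not pass in any comparison. Tfeb (chromosome 17, 47737030 to 47792419) had 7.72, 8.88, 7.95 and 6.24 CPM in CBE+GZ-667161, 5.93, 10, 9.80 and 8.94 CPM in CBE, and 9.0, 8.51, 7.12 and 5.08 CPM in PBS. Tfe3 (chromosome X, 7762560 to 7775202) had 49.8, 56.5, 45.4 and 64.1 CPM in CBE+GZ-667161, 58.2, 53.9, 67.9 and 62.6 CPM in CBE, and 57.9, 47.2, 47.3 and 50.9 CPM in PBS. Mitf (chromosome 6, 97807052 to 98021349) had 3.64, 3.68, 3.14 and 3.56 CPM in CBE+GZ-667161, 3.77, 3.89, 2.10 and 3.64 CPM in CBE, and 3.17, 4.89, 3.35 and 4.92 CPM in PBS. In all 3 genes each group overlapped both others. In CBE against PBS the log2 fold change was 0.24 for Tfeb (95% interval -0.32 to 0.81), 0.26 for Tfe3 (-0.03 to 0.55) and -0.34 for Mitf (-1.05 to 0.37), with edgeR adjusted p = 0.62, 0.26 and 0.58. In CBE+GZ-667161 against CBE it was -0.16 for Tfeb (-0.73 to 0.40), -0.18 for Tfe3 (-0.47 to 0.11) and 0.09 for Mitf (-0.64 to 0.81). The intervals give the changes that these data leave possible. The CBE+GZ-667161, CBE and PBS libraries held 127, 84 and 124 counts of Tfeb, 841, 588 and 885 of Tfe3, and 56, 31 and 75 of Mitf. These are transcript levels; the factors act by moving into the nucleus, which was not measured.

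**Figure D4:**
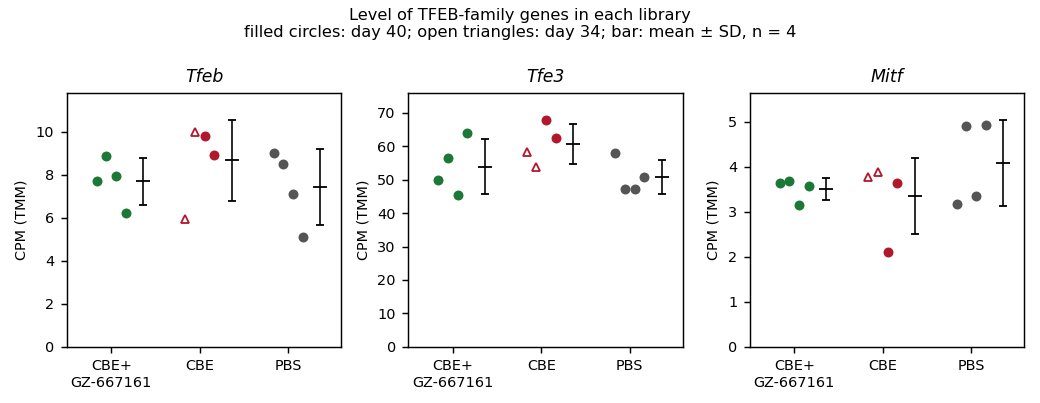
CPM of Tfeb, Tfe3 and Mitf in each of the 12 libraries (circles: day 40, open triangles: day 34), with the mean ± SD of 4 libraries beside each group; axes start at 0. The 3 groups overlap in each panel, and the lowest Mitf value, 2.10 CPM, is that of CBE replicate 4.

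The CBE group alone held 2 ages, so the members were also compared within it in a fit of 4 groups. In CBE of day 40 against CBE of day 34, 1 of the 40 genes was lower, beside 0.389% of 13372 tested genes, and 0 were higher in any of the 3 tools, beside 0.224% (0.613% in either direction). An unadjusted p under 0.05 was seen for 6 of the 40, beside 2021 of the 13372 tested genes, which is about the same share. The gene was Hexa, the α-subunit of β-hexosaminidase (chromosome 9, 59539540 to 59565109), which had 122, 127, 137 and 163 CPM in CBE+GZ-667161, 164, 216, 104 and 93.4 CPM in CBE, and 106, 98.5, 94.7 and 94.1 CPM in PBS. The day 34 CBE libraries were the highest of all 12, and the day 40 CBE libraries lay in and around the PBS range. The difference of day 40 against day 34 was -0.97 ± 0.17 (edgeR adjusted p = 0.027), and the call was lost without CBE replicate 3, 4 or 6 (adjusted p up to 0.29). Those fits leave 1 library at an age, which is assumed to vary like the libraries of the other groups, so they say little about stability. Against PBS, Hexa was at 0.54 ± 0.20 with all CBE libraries (edgeR adjusted p = 0.10) and passed with those of day 34 alone (0.97 ± 0.15, adjusted p = 0.00079). Exons of Hexa and of Tmem202 on the other strand share 255 bases.

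With CBE libraries of 1 age only, 15 genes were higher in CBE than in PBS at either age, beside 7.67% of all tested genes at day 40 and 4.78% at day 34. With day 40 alone 1 gene (Ids) was lower, beside 5.55%, and with day 34 alone 0 were, beside 0.726%. Galns and Ids did not pass with those of day 34 alone, and Gla and Lipa at neither age alone. Hgsnat passed with those of day 40 alone (0.76 ± 0.14, edgeR adjusted p = 0.0032), and Hexa and Pla2g15 (0.77 ± 0.16, adjusted p = 0.0094) with those of day 34 alone. For CBE+GZ-667161 against CBE of the same day 40, 4 genes were lower, beside 2.67% of all tested genes: Galns (-1.23 ± 0.25, edgeR adjusted p = 0.014), Hgsnat (-0.84 ± 0.14, adjusted p = 0.0063), Fuca1 (-0.83 ± 0.14, adjusted p = 0.0056) and Lgmn (-0.69 ± 0.15, adjusted p = 0.019). The other 4 genes called with all CBE libraries lay at -0.69 ± 0.20 (Cd63), -0.76 ± 0.25 (Cd68), -0.58 ± 0.16 (Naglu) and -0.49 ± 0.14 (Man2b1), with adjusted p between 0.056 and 0.098. Against CBE of day 34 alone 0 of the 40 passed, beside 0.0147% of all tested genes, and Fuca1 came nearest (-0.86 ± 0.13, edgeR adjusted p = 0.067). The values were not smaller there: Cd63 lay at -0.98 ± 0.20, Cd68 at -1.03 ± 0.25, Naglu at -0.73 ± 0.17 and Man2b1 at -0.50 ± 0.14. Galns, at -0.98 ± 0.27, was nearer 0 than at day 40. The median of the 40 was -0.25 with 36 below 0, against -0.24 with 29 below 0 for day 40. Of the 6 genes called lower in CBE+GZ-667161 than in CBE, Fuca1 kept its call whichever library was left out; the other 5 lost it without at least 5 of the libraries taken 1 at a time. With the Xist class as a term in the fit, Fuca1 alone passed in CBE+GZ-667161 against CBE (-0.91 ± 0.16, edgeR adjusted p = 0.038), beside 0.119% of all tested genes. The other 5 lay at -0.96 ± 0.22 (Cd63), -0.93 ± 0.28 (Cd68), -0.55 ± 0.18 (Naglu), -0.57 ± 0.15 (Man2b1) and -1.18 ± 0.29 (Galns). All CBE libraries were of 1 Xist class, so the class and the group cannot be fully told apart.

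Other genes of the same compartment were followed in 4 lists. Of 20 tested hydrolases, activators and maturation factors outside the 40, 8 were higher and 1 was lower in CBE than in PBS, with a median of 0.50, beside 6.95% and 4.04% of all tested genes. The serine carboxypeptidase gene Scpep1 was at 0.90 ± 0.18 (edgeR adjusted p = 0.004) and Dnase2a, an acid DNase, at 1.45 ± 0.31 (edgeR adjusted p = 0.0053). Epdr1, a lipid-binding lysosomal protein gene, was at -0.52 ± 0.13 (edgeR adjusted p = 0.016). In CBE+GZ-667161 against CBE, Scpep1 was lower (-0.87 ± 0.18, edgeR adjusted p = 0.032) and Epdr1 was higher (0.68 ± 0.13, adjusted p = 0.024). Of 14 sorting receptors and targeting enzymes, 2 were higher in CBE than in PBS, Nagpa, the uncovering enzyme of the mannose 6-phosphate tag (0.65 ± 0.18, edgeR adjusted p = 0.032), and M6pr, a receptor for that tag (0.34 ± 0.10, adjusted p = 0.045). In the same list 1 was lower, the sorting receptor Sorl1 (-0.45 ± 0.14, edgeR adjusted p = 0.045), and the median was -0.02. Beside the 6.95% higher and 4.04% lower of all tested genes, these counts are too few to be a result about the list. Of 25 further membrane proteins and transporters, 2 were higher, the peptide and histidine transporter Slc15a3 (3.67 ± 0.29, edgeR adjusted p = 2.7e-07) and the nucleoside transporter Slc29a3 (0.88 ± 0.14, adjusted p = 0.00054), and 2 were lower, the ABC transporters Abca2 (-0.50 ± 0.13, adjusted p = 0.019) and Abcb9 (-0.59 ± 0.18, adjusted p = 0.046), with a median of -0.01. Beside the same shares of all tested genes, the counts in this list too are not a result about it. Of 19 genes of nutrient sensing at the lysosome and of TFEB control, such as the Ragulator and Rag GTPase genes, 0 passed in edgeR. This stands beside 6.95% higher and 4.04% lower of all tested genes. An unadjusted p under 0.05 was seen for 3 of the 19, beside 3133 of the 12623 tested genes, and the median was -0.04. These counts too are not a result about the list.

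Markers of several cell types also differed between the groups. The 16 microglia markers together took 1842, 2681, 2545 and 3239 CPM in CBE+GZ-667161, 3745, 4561, 2939 and 2892 CPM in CBE, and 953.8, 1016, 965.1 and 916.4 CPM in PBS. Both groups given CBE lay above PBS, and the day 40 CBE libraries lay within the range of CBE+GZ-667161. Of 15 tested markers, 8 were higher in CBE+GZ-667161 than in PBS (median 0.96), beside 3.11% of all tested genes, and 9 in CBE than in PBS (median 0.97), beside 6.95%. The marker C1qc was lower in CBE+GZ-667161 than in CBE (-0.78 ± 0.16, edgeR adjusted p = 0.032; median -0.18). Against CBE of day 40 alone the median of these markers was 0.20, with 3 of 15 higher in CBE+GZ-667161, beside 2.42% of all tested genes, and 0 lower, where the median of the 40 lysosomal genes was -0.24. Within CBE, 3 of the 15 were lower at day 40 than at day 34 (Csf1r, Itgam and Fcrls), beside 0.389% of all tested genes. All 15 had negative values, with a median of -0.84, where the median of the lysosomal genes was -0.12. The summed border macrophage and monocyte markers lay between 15.9 and 39.65 CPM in CBE+GZ-667161, between 22.06 and 51.74 CPM in CBE and between 12.57 and 20.0 CPM in PBS. Of these, 1 of 5 tested genes was higher in CBE than in PBS (Ms4a7), beside 6.95% of all tested genes. Astrocyte markers summed to 4020 to 4488 CPM in CBE+GZ-667161, 4914 to 5201 CPM in CBE and 3743 to 4353 CPM in PBS. Of 8 astrocyte markers, 4 were higher in CBE than in PBS and 3 were lower in CBE+GZ-667161 than in CBE, beside 6.95% and 0.832% of all tested genes. Of 8 oligodendrocyte markers, 1 was lower in CBE than in PBS (median -0.54, all 8 below 0) and 1 was higher in CBE+GZ-667161 than in CBE (median 0.49, all 8 above 0), beside 4.04% and 0.444%. Erythroid markers summed to 1414 to 3910 CPM in CBE+GZ-667161, 1249 to 1734 CPM in CBE and 1964 to 4037 CPM in PBS. Of these, 1 of 5 was lower in CBE than in PBS, beside 4.04% of all tested genes. Among the CBE+GZ-667161 libraries, replicate 5 was the highest for 23 of the 40 lysosomal genes and replicate 2 the lowest for 22. The sums of microglia, astrocyte, and border macrophage and monocyte markers were also highest in replicate 5 and lowest in replicate 2. The other marker sums did not follow this order. Replicate 5 also had the lowest total count of this group (2211446). The part of any of these cell types in the lysosomal values was not tested.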

How the data were processed

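The authors deposited raw counts per gene symbol as whole numbers. The submitters' processing notes name HTSeq, DESeq2, cutadapt and HISAT 0.1.6 and the build mm10 without role or order. For annotation, strand use and molecular identifiers nothing is stated: not given in the sources used here. Also used, for counts of calls only, was the authors' deposited table of log2 fold changes and adjusted p-values: it calls 11 of the 40 genes for CBE+GZ-667161 and 17 for CBE, each set against PBS, and 9 between both treated groups. Of these, 9, 17 and 6 are called here, all with the opposite log2 sign. The authors' headers name PBS before the treated groups, and CBE before CBE+GZ-667161. Read as the first group over the second, all these directions are the same as here. The deposited normalized table was not used.

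Of 16505 entries, 23 with a date in place of a symbol (0.266% to 0.347% of a library's counts) were left out. Counts were filtered with filterByExpr (minimum count 10, minimum total 15), scaled by TMM, then fitted and tested in edgeR 4.0.16 (glmQLFit and glmQLFTest) with Benjamini-Hochberg adjustment over 12623 genes and a threshold of 0.05, for groups taken from the labels' treatment. SE is the log2 fold change over the square root of F. The step was run on counts simulated with the spread estimated here and with no differences of age or sex, so that run does not cover such differences. Replicates of a group differed beyond counting noise (chi-square per degree of freedom 3.29 to 12.2). Low totals make low genes less precise, and a group holds 4 libraries. Alternatives were RLE scaling, no filter, DESeq2 1.42.0, voom in limma 3.58.1, a replicate block, CBE of 1 age, the Xist class as a term, a threshold of 0.01 and each library left out. Values in all 12 libraries are printed for the 10 genes with the smallest p in CBE against PBS, each gene lower in any comparison or passing in CBE+GZ-667161 against CBE, and the 3 factors; of each related list, up to 4 passing genes with the smallest p and up to 3 of the rarer direction are named, except for some that are not reported here. The genes, lists and rules were chosen with earlier results of these data known. Among genes not called between groups, exons of Npc1, Hexa, Sgsh, Arsb, Ppt1, Plbd2, Acp2, Idua and Glb1 also overlap other genes, so their counts may be mixed. Gene positions and exon overlaps of at least 100 bases are from GENCODE M21 (GRCm38), promoter windows from RefSeq (GRCm38.p6). R 4.3.3, Python 3.11.15, pandas 2.3.3 and matplotlib 3.10.9 were used.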

Additional observations from a re-analysis of the deposited data

Results flagged for a closer look

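In 120 groups of 4 libraries (40 genes in 3 groups), 6 held 1 library far from the others, where chance alone marks about 1 in 20 groups. The share of the range taken by the gap was 0.839 for Npc1 in CBE+GZ-667161 replicate 4 (23.0 CPM, the lowest) and 0.889 for Npc1 in PBS replicate 4 (23.5 CPM, the lowest). It was 0.973 for Lipa in CBE+GZ-667161 replicate 2 (22.7 CPM, the lowest) and 0.862 for Mitf in CBE replicate 4 (2.10 CPM, the lowest). In PBS replicate 4, the PBS library with the smallest total count, Cd68 (23.5 CPM) and Galns (16.8 CPM) were the highest of the PBS libraries, with shares of 0.855 and 0.858. Without PBS replicate 4, Cd68 and Galns both kept their calls in CBE against PBS. Hexa differed between the ages of the CBE libraries, by -0.97 on the log2 scale for day 40 against day 34 (edgeR adjusted p = 0.027).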

How the results depend on the processing

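The counts of higher genes in both comparisons with PBS stayed within 1.5 times of 16 and 9 in all alternatives (14 to 17 and 8 to 12), as did the 0 genes lower in CBE+GZ-667161 than in PBS and the 0 higher than in CBE. In the main fit 16 and 9 stood beside 6.95% and 3.11% of all tested genes. No log2 fold change of a called gene turned its direction; sign changes of values called in neither fit were not counted as reversals. The 6 genes lower in CBE+GZ-667161 than in CBE became 10 in DESeq2 (of 489 genes in all), 0 with CBE of day 34 alone (of 2), and 1 with the Xist class as a term (of 32) or at an adjusted p under 0.01 (of 6); with CBE of day 40 alone 692 genes passed. The 1 lower gene in CBE against PBS, Ids, was 0 with CBE of day 34 alone (751 genes in all, against 1387) and at an adjusted p under 0.01 (676, and 261 against 435 in CBE+GZ-667161 against PBS). Deviations of same-numbered replicates from their group means had correlations of -0.08 to 0.24. These values give no sign that the numbers pair the samples, but so few libraries cannot exclude it. With the replicate block Gla, Lipa and Ids lost their calls in CBE against PBS, and Hexa gained a call as higher. In CBE+GZ-667161 against CBE, Naglu and Man2b1 lost their calls and Grn gained a call as lower. This left 5 lower genes, where 82 of all tested genes passed in either direction. In CBE day 40 against CBE day 34, 240 genes passed in DESeq2 and 19 in limma-voom, against 82. Leaving out each library gave 0 to 1 lower gene in CBE against PBS, 1 to 9 lower in CBE+GZ-667161 than in CBE (5 to 269 genes in all), and 0 to 1 lower at day 40 than at day 34 of CBE (0 to 104 genes in all). Where a CBE library is left out of the age comparison, 1 age holds a single library, assumed to vary like the other groups. Without CBE+GZ-667161 replicate 5 the CBE+GZ-667161 against CBE counts were the highest of these. The causes of these changes were not tested. Low counts widen the intervals of Mitf, Manba, Gla, Tfeb and Sgsh.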
